A study of Mus musculus with 6 samples.

Results

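The interferon-inducible GTPases described here are the 10 genes Gbp2, Gbp3, Gbp5, Gbp7, Gbp9, Irgm1, Irgm2, Igtp, Ifi47 and Gvin1, found by their names among the 46141 genes of the deposited table. All 10 matched a row and all 10 passed the filter on low values, which kept 9874 coding genes with at least 1 FPKM (fragments scaled to the length of the gene and to the total of the library) in at least 3 of 6 libraries. RNA came from adherent peritoneal cells, labelled as macrophages, of male Balb/c mice aged 6 to 8 weeks. The BSN-37 group had 18 mice that received 0.2 mL of BSN-37 at 48 µg/mL into the peritoneum, and the PBS group had 18 mice that received 0.2 mL of PBS. BSN-37 is known here only by its code name. Both groups had been given 2 mL of 3% thioglycollate 3 days earlier, so the PBS cells were elicited cells too, and not resident ones. Cells were lavaged 12 h after the injection and left to adhere for 4 h. Each library held RNA pooled from 6 mice, with 3 pools per group, so the spread between libraries is a spread between pools and not between single mice.

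These genes encode GTPases that resting macrophages make at a low level and that interferons, above all interferon-gamma, raise through their receptors and the interferon regulatory factors. The guanylate-binding proteins (GBP) coat bacteria and the vacuoles of intracellular parasites and help bacterial products reach the inflammasomes. The immunity-related GTPases (IRG) fall into effectors, which load onto the parasite vacuole, and the IRGM regulators, which sit on the cell's own membranes and hold the effectors inactive there. The data address whether cells taken after BSN-37 held more RNA of these genes than cells taken after PBS.

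The promoters come first, because most of them carry the letters through which interferon acts on such genes. RefSeq promoters of build GRCm38.p6, from 250 bases before to 50 bases after the start of the transcript, were matched by symbol for 8 of the 10 genes, as 9 promoters, with 2 of them for Gbp3. Gbp9 and Gvin1 had no match. Both strands were searched for the core of the interferon-stimulated response element (ISRE), written as GAAA, any 2 bases and GAAA, and for the gamma-activated site (GAS), TTCNNNGAA, which reads the same on both strands. The ISRE core lay in 7 of the 9 promoters, from 7 of the 8 genes, against 3.44% of all 32851 promoters of the same length. The GAS lay in 4 of the 9 promoters, those of Gbp5, Gbp7, Igtp and Irgm2, against 8.3% of all promoters. Those 4 genes held both motifs, as did 0.454% of all promoters. Neither motif was found in this window for Ifi47, or in the second Gbp3 promoter. The stretches below show how alike the ISRE cores are, in the direction of transcription, with 12 bases on either side and the motifs in capitals.
Gbp5 (chr3:142496757-142496790, plus strand): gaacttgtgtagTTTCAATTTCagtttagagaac
Gbp7 (chr3:142530271-142530304, plus strand): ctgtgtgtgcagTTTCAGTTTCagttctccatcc
Gbp3 (chr3:142559987-142560026, plus strand): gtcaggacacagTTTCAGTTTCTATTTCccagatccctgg
Gbp2 (chr3:142620592-142620625, plus strand): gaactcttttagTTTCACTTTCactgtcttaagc
Irgm1 (chr11:48871423-48871462, minus strand): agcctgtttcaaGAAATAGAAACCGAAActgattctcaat
Igtp (chr11:58199499-58199543, plus strand): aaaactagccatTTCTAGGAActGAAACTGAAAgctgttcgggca
Irgm2 (chr11:58214890-58214934, plus strand): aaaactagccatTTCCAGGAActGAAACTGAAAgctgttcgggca
In the 4 Gbp promoters the core is on the opposite strand, so it shows as TTTC, 2 bases and TTTC, and in the 3 IRG promoters it reads along the gene. Gbp3 and Irgm1 have 2 overlapping cores each, so their capitals run on. In Igtp and Irgm2 the capitals mark the GAS first and the ISRE core after it. The Igtp and Irgm2 stretches differ by 1 of 45 bases, inside the GAS. The ISRE cores began between 165 bases (Gbp5) and 24 bases (the second core of Irgm1) before the start site. The genes lie in clusters on GRCm38, by GENCODE M21. Gbp7 (chromosome 3, 142530342 to 142550149), Gbp3 (142560026 to 142573209), the gene whose identifier the row named Gbp5 carries (142594847 to 142619179) and Gbp2 (142620602 to 142638008) lie in this order on the plus strand, and Gbp9 is on chromosome 5 at 105077630 to 105139539, on the minus strand. The IRG genes are on chromosome 11, with Irgm1 at 48861968 to 48871683 (minus strand), Ifi47 at 49076587 to 49096974, Igtp at 58199556 to 58207591 and Irgm2 at 58199618 to 58222782 (plus strand). Gvin1 is on chromosome 7 at 106156556 to 106215326, on the minus strand. A match of letters is a description of the promoter, and no binding was measured.

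**Figure D1:**
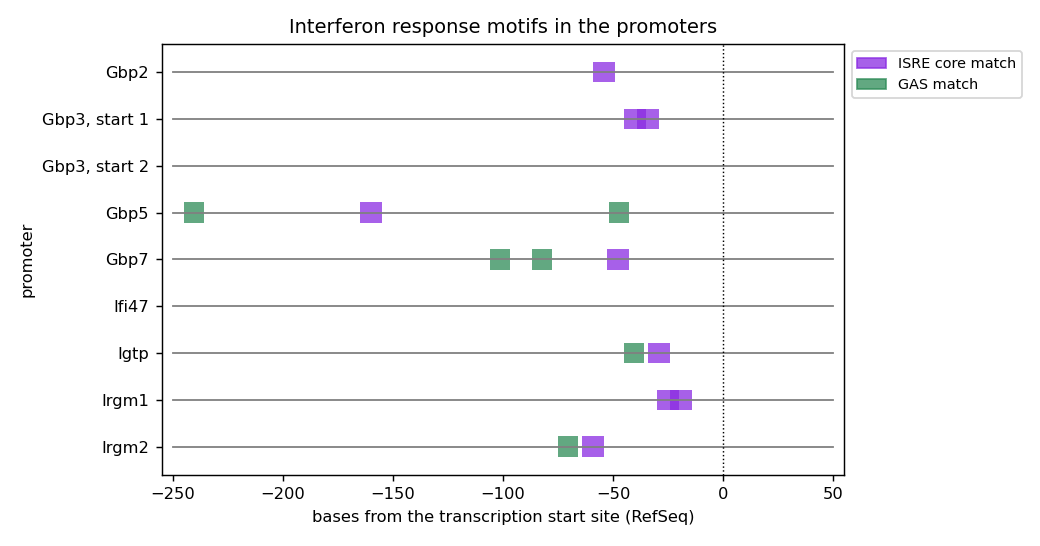
Positions of the ISRE core and the GAS in the matched promoters, one row per promoter, with the distance from the transcript start in bases on the x axis. ISRE cores lie within 64 bases before the start in every member that has one except Gbp5, and Gbp5, Gbp7, Igtp and Irgm2 also carry the GAS. The promoter shown under Gbp5 was matched by symbol alone and is not that of the gene model at the row's identifier.

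The libraries held 55882693 to 64868123 counted reads in BSN-37 cells and 60437875 to 65456020 in PBS cells, and 295 to 14445 of these fell on a member in a library. Counting error is therefore small beside the spread between pools. The macrophage markers Adgre1, Csf1r, Cd68 and Itgam were at 264 to 675 FPKM in every library. Mertk and Fcgr1 were lower, at 7.11 to 13.7 and 4.28 to 19.3 FPKM. One library stood apart over all genes: PBS library 1 lay at -33.21 on the first principal component, which held 42.7% of the variance, and the other 5 lay between -1.93 and 12.9. Over all coding genes edgeR's quasi-likelihood test called 1 gene at a Benjamini-Hochberg adjusted p under 0.05, which is 0.0101% of those tested, and it was not a member.

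BSN-37 cells had more RNA than PBS cells for 9 of the 10 GTPases by the fitted difference, and Igtp was level, but no member passed the test. In edgeR 0 of 10 had an adjusted p under 0.05 and 3 of 10 an unadjusted p under 0.05, all 3 with the higher level in BSN-37 cells: Gvin1, Gbp7 and Gbp9. Over all coding genes 9.11% had an unadjusted p under 0.05, and 4.71% were also higher in BSN-37 cells. DESeq2 called 0 of 10, against 1.21% of all coding genes. In no member were the 2 groups free of overlap, against 7.84% of all coding genes that lay wholly higher in BSN-37 cells. The median log2 difference of the members was 0.40, and it was -0.00 over all coding genes. A difference above 0 was seen in 49.5% of all coding genes. The members shared a pattern over the pools, described below, so their counts are not counts of independent genes.

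**Figure D2:**
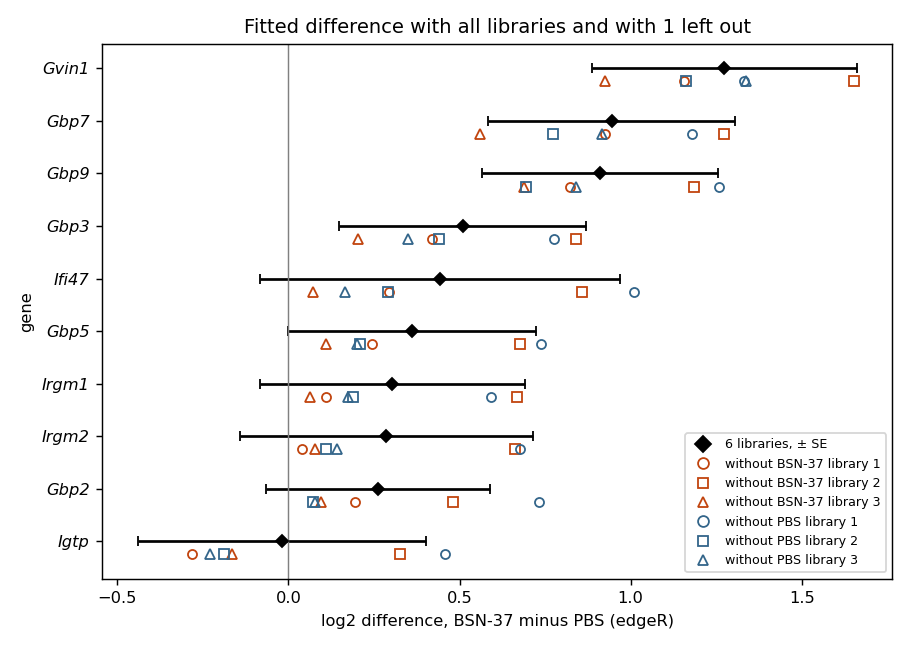
Fitted log2 difference of each GTPase, BSN-37 minus PBS, with its standard error as the bar (edgeR, 3 pools per group). The values run from -0.02 for Igtp to 1.27 for Gvin1, and none of the 10 passed an adjusted p of 0.05.

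Among the GBP genes, Gbp2, which gathers on the vacuole of Toxoplasma gondii in mice, had the highest level per length. Its FPKM was 26.6, 17.5 and 30.1 in BSN-37 cells and 31.6, 15.0 and 14.5 in PBS cells. The PBS group held both the highest and the 2 lowest values, so the groups overlapped. The means were 24.7 ± 6.51 FPKM in BSN-37 cells and 20.4 ± 9.75 in PBS cells (SD, n = 3 each), and the edgeR log2 difference was 0.26 (SE 0.33, adjusted p = 0.803).

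The row named Gbp5 had 17.7, 8.40 and 20.5 FPKM in BSN-37 cells and 17.4, 9.54 and 9.0 FPKM in PBS cells. Gbp5 is known to promote the assembly of inflammasomes. Its edgeR log2 difference was 0.36 (SE 0.36, adjusted p = 0.761), with overlapping groups. The row carries the Ensembl identifier ENSMUSG00000040264, which GENCODE M21 names Gbp2b, so its reads may be those of Gbp5, of Gbp2b or of both. The promoter shown under Gbp5 was matched by the symbol alone and lies before Gbp7, so it is not that of the gene model at the row's identifier. Without it the ISRE core lay in 6 of 7 genes, the GAS in 3 of 7 and both in 3 of 7. The RefSeq promoter of Gbp2b held 1 ISRE core and no GAS.

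Gbp3, from the GBP cluster on chromosome 3, had 6.64, 3.02 and 8.42 FPKM in BSN-37 cells and 5.56, 3.92 and 3.07 in PBS cells. BSN-37 library 2 was the lowest of all 6. The edgeR log2 difference was 0.51 (SE 0.36, adjusted p = 0.666).

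Gbp7, which has been tied to the assembly of the phagocyte NADPH oxidase in mice, and Gbp9, from the second GBP cluster on chromosome 5, had the widest differences among the GBP genes. Gbp7 had 4.35, 2.22 and 6.30 FPKM in BSN-37 cells and 2.85, 1.68 and 2.07 in PBS cells. Gbp9 had 3.25, 1.80 and 3.79 FPKM in BSN-37 cells and 2.20, 1.07 and 1.36 in PBS cells. In both genes a single BSN-37 library, library 2, fell below a single PBS library, library 1, and every other BSN-37 value was above every PBS value. For Gbp7 the edgeR log2 difference was 0.95 (SE 0.36, unadjusted p = 0.0288, adjusted p = 0.509), and for Gbp9 it was 0.91 (SE 0.34, unadjusted p = 0.0277, adjusted p = 0.509). DESeq2 gave adjusted p-values of 0.162 for Gbp7 and 0.181 for Gbp9.

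The 3 IRGM regulators differed less between the groups than the pools did within them. Irgm1, needed in mice to resist mycobacteria and to keep the effectors off the cell's own membranes, had the highest PBS mean of all members. Its FPKM was 49.8, 17.9 and 51.9 in BSN-37 cells and 42.3, 27.3 and 25.7 in PBS cells, with an edgeR log2 difference of 0.30 (SE 0.39, adjusted p = 0.805). BSN-37 cells thus held the 2 highest values and the lowest one. Irgm2 had 23.6, 7.70 and 23.1 FPKM in BSN-37 cells and 21.7, 11.2 and 11.4 in PBS cells, with a log2 difference of 0.29 (SE 0.43, adjusted p = 0.835). Igtp, also called Irgm3, had 21.8, 8.02 and 19.9 FPKM in BSN-37 cells and 26.0, 12.8 and 11.2 in PBS cells. Its group means were 16.6 ± 7.45 FPKM in BSN-37 cells and 16.7 ± 8.14 in PBS cells (SD, n = 3 each), and its log2 difference of -0.02 (SE 0.42, adjusted p = 0.993) was the lowest of the members.

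Ifi47, the only IRG effector among the members, had 35.4, 10.4 and 43.2 FPKM in BSN-37 cells and 35.7, 17.5 and 12.4 in PBS cells. It varied most among the members within a group, 4.18-fold between BSN-37 libraries and 2.88-fold between PBS libraries. Its edgeR log2 difference was 0.44 (SE 0.53, adjusted p = 0.796).

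Gvin1, a very large interferon-inducible GTPase, had the widest difference of the 10. It had 16.6, 6.10 and 20.8 FPKM in BSN-37 cells and 6.37, 5.12 and 6.36 FPKM in PBS cells. Libraries 1 and 3 of BSN-37 stood well above all PBS libraries, and BSN-37 library 2 lay among the PBS values. The means were 14.5 ± 7.55 FPKM in BSN-37 cells and 5.95 ± 0.719 in PBS cells (SD, n = 3 each). The edgeR log2 difference was 1.27 (SE 0.39, unadjusted p = 0.00992, adjusted p = 0.427), and DESeq2 gave an adjusted p of 0.288. Without BSN-37 library 2 the log2 difference was 1.65 with an edgeR adjusted p of 0.0198, and Gvin1 was then called, as were 0.122% of coding genes. That library held the lowest BSN-37 value, so leaving it out widens the difference, and the call is not read as a result. Leaving out any other single library gave edgeR adjusted p-values of 0.432 to 0.654.

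**Figure D3:**
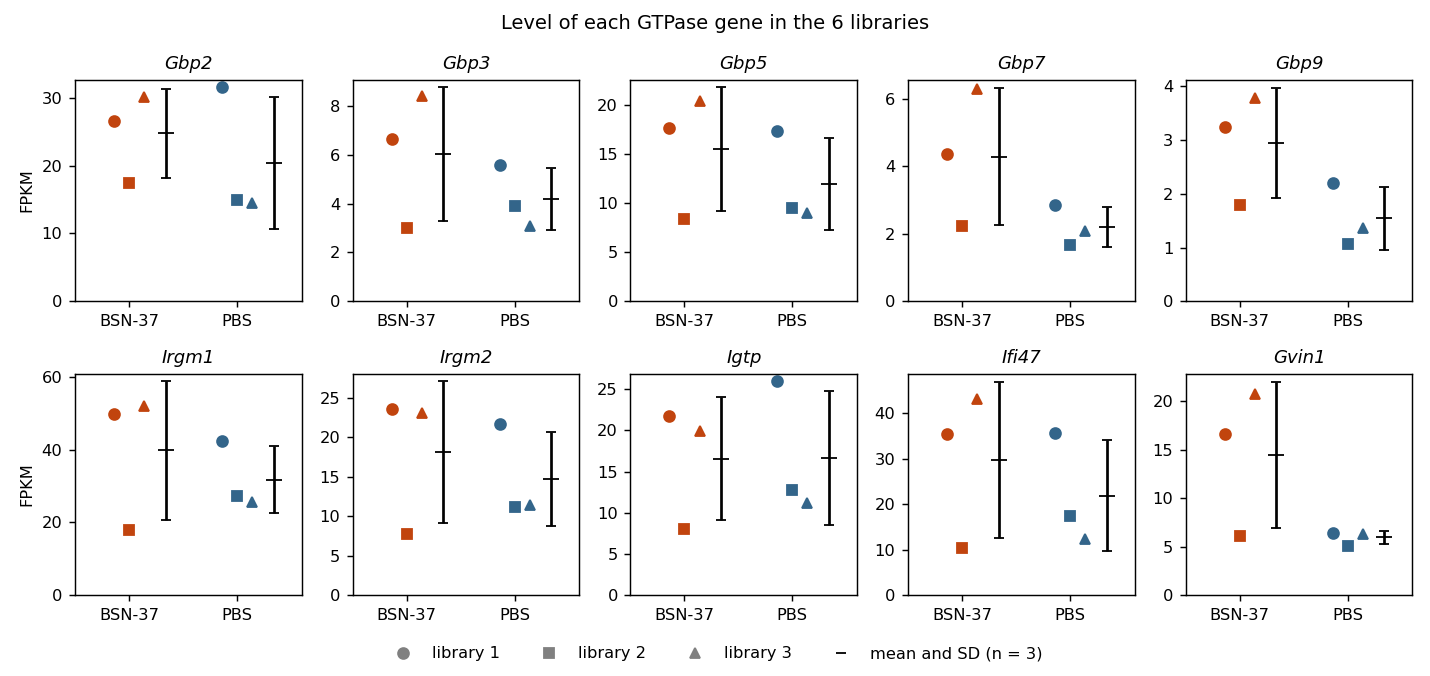
FPKM of each GTPase in every library, with BSN-37 libraries left of PBS libraries and each group mean marked. In every gene BSN-37 library 2 is the lowest of its group and PBS library 1 the highest of its group, and the groups overlap.

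Gvin1 has a near-identical neighbour. Of its transcript stretches of 100 bases, 97.8% also occur in another gene, and 96.7% occur in Gm4070, so how the authors' counting shared reads between the 2 decides each value. Gm4070 had 21.5, 8.59 and 29.4 FPKM in BSN-37 cells and 8.37, 7.65 and 9.81 in PBS cells, with an edgeR log2 difference of 1.19 (SE 0.38, adjusted p = 0.434). Summed over both genes there were 405.5, 151.6 and 537.2 CPM (reads scaled to the total of the library) in BSN-37 cells and 154.6, 137.6 and 171.8 in PBS cells. Gvin1 took 41.5% to 43.4% of that sum in BSN-37 cells and 39.3% to 43.1% in PBS cells. BSN-37 library 2 again lay within the PBS range of the sum, and the share taken by Gvin1 overlapped between the groups.

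The other members share less sequence. Gbp7 shares 10.0% of its 100-base stretches, mostly with Gm43802. Igtp shares 5.16% and Irgm2 3.01%, each with the other, and their annotated exons overlap by 162 bases on the same strand. Gbp9, Gbp3 and Ifi47 share 1.65%, 0.694% and 0.561%, and Gbp2 and Irgm1 share none. Exons of Ifi47 overlap those of Olfr56 by 111 bases on the same strand, but Olfr56 had only 64, 10 and 79 reads in BSN-37 libraries and 40, 32 and 36 in PBS libraries. Ifi47 and Gbp2 also overlap genes on the opposite strand, Gm12188 by 106 bases and Mir6381 by 24 bases, and the sources used here do not state whether the counting used strand.

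By mean FPKM in PBS cells the order was Irgm1, Ifi47, Gbp2, Igtp, Irgm2, Gbp5, Gvin1, Gbp3, Gbp7 and Gbp9. Irgm1 was above Ifi47 in 6 of 6 libraries, yet the ranges of these 2 genes over the libraries overlapped, as did those of every pair of neighbours. Within PBS cells only Gbp5 and Gvin1, and Gbp3 and Gbp7, had ranges that did not overlap. Igtp was above Irgm2 in only 3 of 6 libraries and Ifi47 above Gbp2 in 4 of 6, so those neighbours had no firm order.

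The members shared a pattern over the pools. In all 10 genes BSN-37 library 2 was the lowest of its group, and in all 10 PBS library 1 was the highest of its group, in Gvin1 only by 6.37 against 6.36 FPKM. Both held together in 8.79% of all coding genes, while BSN-37 library 2 was lowest in 19.6% and PBS library 1 highest in 42.5%. BSN-37 library 2 was even below all 3 PBS libraries in 6 members, Gbp3, Gbp5, Irgm1, Irgm2, Igtp and Ifi47, which held in 17.9% of all coding genes. The summed FPKM of the 10 genes was 206, 83.0 and 228 in BSN-37 cells and 192, 105 and 97.1 in PBS cells. BSN-37 libraries 1 and 3 thus resembled PBS library 1, and BSN-37 library 2 lay below PBS libraries 2 and 3.

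This pool-to-pool spread was wide beside that of other genes. The highest BSN-37 library exceeded the lowest by 1.72-fold to 4.18-fold (median 2.82-fold), and in PBS cells by 1.24-fold to 2.88-fold (median 1.94-fold). The within-group SD of the members on the log2 scale was 0.52 to 0.96 with a median of 0.67. Over all coding genes its median was 0.18, and 99% of them were at or below 0.74, for log2(CPM + 1).

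**Figure D4:**
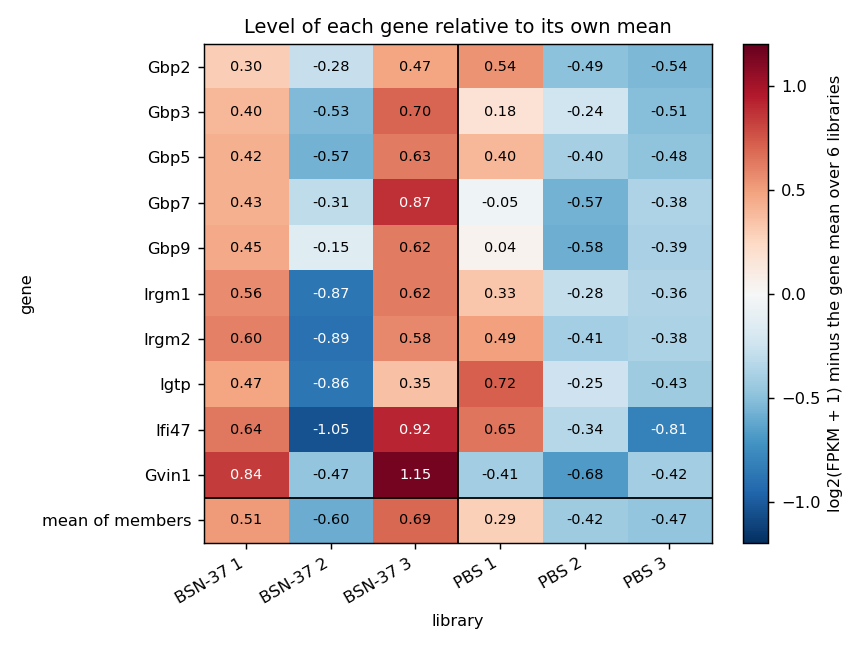
log2(FPKM + 1) of each GTPase minus its mean over the 6 libraries, by library, BSN-37 libraries first. The mean over the members was 0.51, -0.60 and 0.69 in BSN-37 libraries 1 to 3 and 0.29, -0.42 and -0.47 in PBS libraries 1 to 3, and Gvin1 is the member that stays low, at -0.42, in PBS library 1.

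Leaving out single libraries showed how much rests on these pools. Without BSN-37 library 2, 7 of 10 members had an unadjusted edgeR p under 0.05, all higher in BSN-37 cells, against 4.13% of all coding genes that were higher at this p. Without PBS library 1 the count was 4 of 10, against 4.64%. Leaving out any other library gave 1 of 10, against 3.87% without BSN-37 library 1, 4.31% without BSN-37 library 3, 4.33% without PBS library 2 and 6.68% without PBS library 3. BSN-37 library 2 was the lowest and PBS library 1 the highest of its group in all 10 members. Leaving out either therefore moves the difference of every member up, and nothing is read from these counts beside the shares. Igtp, at -0.02 with all libraries, had a log2 difference of 0.33 without BSN-37 library 2 (edgeR adjusted p = 0.811). Without PBS library 1 the Igtp difference was 0.46 (edgeR adjusted p = 0.84).

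Markers of other cells differed between the same libraries. The summed FPKM of 10 neutrophil markers was 159, 261 and 158 in BSN-37 cells and 133, 161 and 141 in PBS cells. The top sum was in BSN-37 library 2. All 10 were detected, but Ngp only by 8 reads in that library. The markers did not share one direction. Of the 7 tested, 4 were higher in BSN-37 cells by the fitted difference and 3, Ly6g, Cxcr2 and Mmp9, were lower. The 8 B cell markers, all detected, summed to 25.3, 29.6 and 14 FPKM in BSN-37 cells and 10.6, 15.2 and 6.97 in PBS cells. Of the 4 tested, all were higher in BSN-37 cells by the fitted difference, with a median log2 difference of 1.36. DESeq2 called 2 of these, Cd79a (adjusted p = 0.000181) and Ms4a1 (adjusted p = 0.0223), and edgeR called none. The 14 markers of T and NK cells, the usual makers of interferon-gamma, summed to 3.41 to 5.01 FPKM in BSN-37 cells and to 2.05 to 3.01 in PBS cells. Most of each sum came from Cd2 and Klrk1. Cd2 had 2.64, 3.15 and 1.26 FPKM in BSN-37 cells and 1.32, 1.94 and 1.33 in PBS cells, with overlap. Klrk1 had 1.82, 0.551 and 1.52 FPKM in BSN-37 cells and 0.644, 0.441 and 0.295 in PBS cells, also with overlap. Unlike Cd2, Klrk1 had the low BSN-37 library 2 and the high PBS library 1 of the GTPases. It was under the filter on low values, so its difference was not tested. Cd3e, Cd3d and Cd3g were at 0 to 0.228 FPKM, with overlap. Ncr1, Gzma, Gzmb and Eomes had 0 reads in all libraries. The 7 macrophage markers summed to 15100 to 17800 FPKM in BSN-37 cells and to 15100 to 17500 in PBS cells. Most of that sum was Lyz2, at 13200 to 15800 FPKM. The 7 dendritic cell markers summed to 2.70 to 5.14 FPKM in BSN-37 cells and to 3.34 to 3.54 in PBS cells. The part of these cells in the levels of the GTPases was not tested. In RNA of bulk cells, fewer cells that make a transcript and less of it per cell cannot be told apart.

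A level relative to the other 9 members of the same library was also computed. It is the log2 FPKM of a gene minus the mean log2 FPKM of the other 9, which removes what all members share in a pool. For Gvin1 it was 0.14, -0.09 and 0.28 in BSN-37 cells and -1.10, -0.54 and -0.16 in PBS cells, so the groups did not overlap. Gbp9 averaged -2.32 in BSN-37 cells and -2.82 in PBS cells, also without overlap. On this scale 0.162% of all coding genes lay wholly higher in BSN-37 cells, and 1.01% wholly lower, with genes outside the family set against all 10 members. These shares are no like-for-like background, because subtracting the members' mean puts their pool pattern, inverted, into a gene that lacks it, so nothing is read from the count of members. Gbp7 averaged -1.79 in BSN-37 cells and -2.22 in PBS cells, with overlap.

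The relative levels of Igtp, Irgm2 and Irgm1 were lower in BSN-37 cells without overlap, against the 1.01% of all coding genes given above. Igtp and Irgm2 share 162 exon bases, 8.01% of those of Igtp and 4.39% of those of Irgm2. They are thus not wholly separate measurements. Igtp was at 0.58, 0.35 and 0.21 in BSN-37 cells and at 1.16, 0.93 and 0.75 in PBS cells. Irgm2 averaged 0.48 in BSN-37 cells and 0.79 in PBS cells, and Irgm1 averaged 1.76 in BSN-37 cells and 2.05 in PBS cells. Gbp2, Gbp3, Gbp5 and Ifi47 had overlapping groups, with differences between -0.15 and -0.04. The 10 relative levels are not independent of each other, since a gene that is high lowers the rest, and no test was made of them.

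As plain ratios of FPKM, Gvin1 over Igtp was 0.76, 0.761 and 1.05 in BSN-37 cells and 0.245, 0.399 and 0.567 in PBS cells. Gvin1 had the highest and Igtp the lowest fitted difference of the members. A wide gap in their ratio thus follows from the choice of the pair, and nothing is read from it. BSN-37 library 2, which had the lowest levels of both genes among BSN-37 libraries, had nearly the same ratio as BSN-37 library 1. The ratio of Irgm2 to Igtp was 1.08, 0.96 and 1.16 in BSN-37 cells and 0.833, 0.87 and 1.02 in PBS cells, with overlap.

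**Figure D5:**
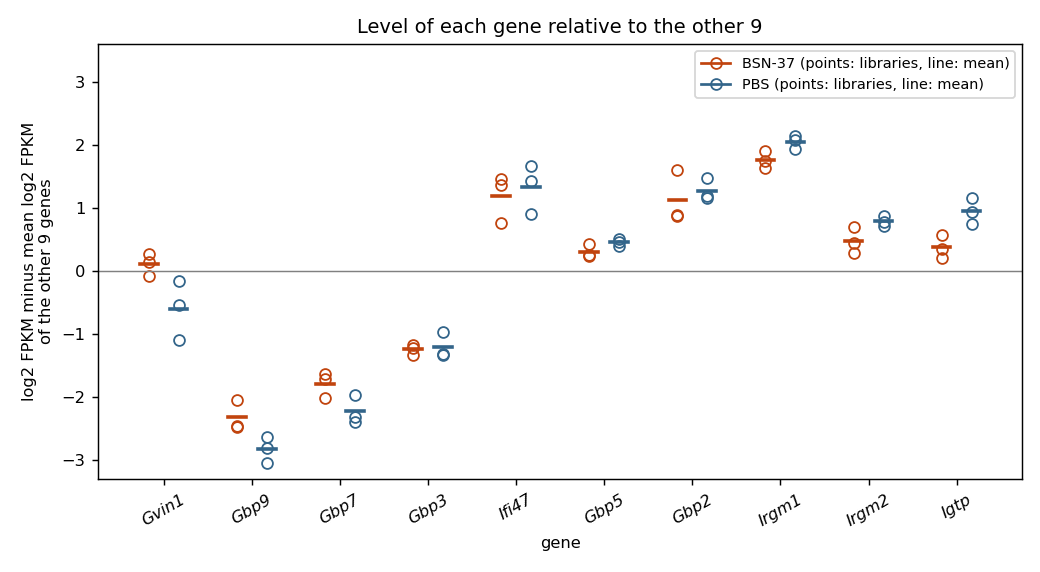
Relative level of each GTPase in every library, as log2 FPKM minus the mean log2 FPKM of the other 9, with BSN-37 libraries left of PBS libraries. Gvin1 and Gbp9 lie wholly higher in BSN-37 cells, as do 0.162% of all coding genes on this scale, and Igtp, Irgm2 and Irgm1 wholly lower, as do 1.01%, though these shares are no like-for-like background.

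Of 6861 coding genes outside the lists with a mean of at least 5 FPKM, 5 were most like the members' mean profile. Likeness was the root mean square difference, over the 6 libraries, from the mean centred log2(FPKM + 1) of the members. It was 0.10 for Frmd4a, 0.12 for Sp110, 0.13 for Daxx, 0.13 for Helz2 and 0.13 for Ddx58, and its median over the genes compared was 0.56. The members themselves were at 0.07 to 0.39. Ddx58, the RNA sensor RIG-I, had 43.3, 15.7 and 47.0 FPKM in BSN-37 cells and 35.5, 24.6 and 21.2 in PBS cells. Daxx, a histone chaperone, had 38.4, 14.8 and 37.2 FPKM in BSN-37 cells and 35.7, 20.0 and 17.5 in PBS cells. Frmd4a, which encodes a FERM-domain scaffold protein, had 23.8, 11.7 and 26.7 FPKM in BSN-37 cells and 19.0, 13.7 and 13.0 in PBS cells. Sp110, a nuclear body protein, had 23.0, 10.9 and 24.9 FPKM in BSN-37 cells and 20.8, 14.7 and 12.4 in PBS cells. Helz2, a helicase, had 27.1, 14 and 33.1 FPKM in BSN-37 cells and 28.6, 18.4 and 15.8 in PBS cells. The choice by likeness fixed that these 5 genes share the low BSN-37 library 2 and the high PBS library 1.

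Further genes of both families were read from lists of related genes, and in none of the lists did edgeR call a gene. Of 7 other GBP genes 4 were found in rows other than those of the members. Gbp2b was not among these 4, because its identifier is that of the row named Gbp5. Only 1 of the 4, Gbp6, passed the filter, at 2.18, 1.68 and 3.23 FPKM in BSN-37 cells and 1.94, 1.34 and 1.01 in PBS cells (log2 difference 0.71, SE 0.30, edgeR adjusted p = 0.538). Its row carries the identifier that GENCODE M21 gives to Gm43302. Of 12 other IRG genes 5 were tested and all 5 were higher in BSN-37 cells by the fitted difference, with a median of 0.67. An unadjusted edgeR p under 0.05 with the higher level in BSN-37 cells was seen in 2 of them, against 4.71% of all coding genes. The same low and high pools were seen in all 5, against 8.79%. Sequence shared among these genes was not computed, so they may not be separate measurements. The 3 with the lowest p were 9930111J21Rik2, 9930111J21Rik1 and Gm5431, with log2 differences of 0.58, 0.67 and 0.80. Tgtp2, an IRG effector also known as Irgb6, had 5.01, 1.71 and 4.10 FPKM in BSN-37 cells and 3.32, 1.83 and 1.59 in PBS cells.

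Some genes of the interferon signal had the pool pattern of the GTPases and others lacked it, and none was called. Of 17 interferon receptor and signal genes 11 were higher and 6 lower in BSN-37 cells by the fitted difference, with a median of 0.12 and 2 unadjusted p-values under 0.05. DESeq2 called none of them. Irf1, which binds the ISRE, had 37.0, 25.0 and 38.7 FPKM in BSN-37 cells and 42.4, 29.4 and 24.1 in PBS cells (log2 difference -0.02, SE 0.25, edgeR adjusted p = 0.987). The pool pattern was present in 7 of the 17 genes.

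Ifngr1, the ligand-binding chain of the interferon-gamma receptor, lacked it. It had 66.3, 84.6 and 68.2 FPKM in BSN-37 cells and 47.4, 58.4 and 53.9 in PBS cells, so all BSN-37 libraries were above all PBS libraries and library 2 was the highest of them. Its log2 difference was 0.43 (SE 0.13, unadjusted p = 0.00814, edgeR adjusted p = 0.427). Socs3, a feedback inhibitor of cytokine receptors, had 10.1, 8.14 and 8.65 FPKM in BSN-37 cells and 12.9, 17 and 10.1 in PBS cells (log2 difference -0.60, adjusted p = 0.427). Irf8, a regulator of macrophage identity and of interferon-gamma targets, had 45.7, 49.7 and 51.3 FPKM in BSN-37 cells and 49.4, 37.8 and 32.9 in PBS cells (log2 difference 0.29, adjusted p = 0.591).

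RNA of the interferons themselves was at or near 0 at this depth. Ifng had 0 reads in all 3 BSN-37 libraries and 0, 2 and 0 reads in the PBS libraries. A count of 0 allows up to 3 reads, or 0.0462 to 0.0537 CPM in the BSN-37 libraries, for counting error only. Ifnb1 had 3, 0 and 0 reads in BSN-37 libraries and 0, 0 and 6 in PBS libraries. Ifna1, Ifna2, Ifna4, Ifnl2 and Ifnl3 had 0 reads in all 6. Of the 9 interferon and inducer genes only Il18, whose product drives interferon-gamma release by lymphocytes, was tested. Il18 had 7.51, 9.32 and 8.61 FPKM in BSN-37 cells and 4.36, 6.11 and 6.26 in PBS cells, without overlap (log2 difference 0.57, SE 0.20, edgeR adjusted p = 0.478).

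Other targets of interferon-gamma did not share one direction. Of 15 tested, 8 were higher and 7 lower in BSN-37 cells by the fitted difference, with a median of 0.00, and 8 had the pool pattern of the GTPases. Icam1, an adhesion molecule, had 47.2, 50.5 and 49.2 FPKM in BSN-37 cells and 84.6, 66.1 and 60.6 in PBS cells. Its log2 difference was -0.55 (SE 0.14), with an adjusted p of 0.383 in edgeR and of 0.0388 in DESeq2, so only DESeq2 called it. Fcgr1, the high-affinity IgG receptor, had 17.1, 7.44 and 19.3 FPKM in BSN-37 cells and 12.3, 8.24 and 4.28 in PBS cells (log2 difference 0.81, SE 0.43, edgeR adjusted p = 0.591). Cybb, the catalytic subunit of the phagocyte oxidase, had 528, 624 and 594 FPKM in BSN-37 cells and 406, 526 and 492 in PBS cells (log2 difference 0.28, adjusted p = 0.558).

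RNA of genes whose proteins work with GBP and IRG GTPases was read from further lists. Of 8 inflammasome genes tested, 5 were higher and 3 lower in BSN-37 cells by the fitted difference, with a median of 0.14. Casp4, the mouse caspase-11 that senses cytosolic lipopolysaccharide, had 10.8, 9.11 and 13.0 FPKM in BSN-37 cells and 6.36, 8.56 and 9.01 in PBS cells, without overlap (log2 difference 0.54, SE 0.20, edgeR adjusted p = 0.506). Aim2, the sensor of cytosolic DNA, had a log2 difference of 0.42 (adjusted p = 0.542), and Casp1, which cleaves interleukin-1 beta, one of 0.30 (adjusted p = 0.69). These 2 unadjusted p-values under 0.05, for Casp4 and Aim2, were the only ones in the list.

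The ATG8 conjugation machinery, which IRG loading onto vacuoles needs in mice, was listed together with ubiquitin partners. Of the 13 genes tested in that joint list, 6 were higher and 7 lower in BSN-37 cells by the fitted difference. The median was -0.00. Atg3, the enzyme that transfers ATG8 proteins to lipid, had 19.3, 21.6 and 21.6 FPKM in BSN-37 cells and 12.3, 17 and 16.8 in PBS cells, without overlap (log2 difference 0.41, edgeR adjusted p = 0.493). Gabarapl1, an ATG8 protein, had a log2 difference of -0.23 (adjusted p = 0.591), and Sqstm1, the ubiquitin adaptor p62, one of -0.29 (adjusted p = 0.63). Some GBP proteins, Gbp2 and Gbp5 among them, reach membranes through a lipid on a C-terminal CaaX box. The 6 genes of that lipid modification were 2 higher and 4 lower in BSN-37 cells by the fitted difference, with a median of -0.09 and no unadjusted p under 0.05. Rce1, Pggt1b and Fntb, an endopeptidase and subunits of the prenyl transferases, had log2 differences of -0.32, 0.34 and -0.35.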

How the data were processed

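Members and gene lists were chosen with earlier results of these data known. For each of the 6 libraries the deposited table gives read counts and, per the file headers, FPKM. The libraries were rRNA-depleted and directional, per the labels' protocols, and the submitters' processing notes name GRCm38. The design text describes microarrays, while the protocol and the values are those of sequencing. What aligned and counted the reads, whether strand was used and which annotation served is not given in these sources. The 4 columns of group means and the circular RNA table were not used.

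From the deposited counts, BSN-37 was compared with PBS by edgeR 4.0.16 (TMM, glmQLFit and glmQLFTest, two-sided, R 4.3.3) over 9874 coding genes by GENCODE M21 class, with at least 1 FPKM in at least 3 libraries, and p-values were adjusted over all of them at a threshold of 0.05. The script was tested on simulated data. FPKM, as the authors gave them, were used for levels and profiles. Means are given ± SD of 3 pools. DESeq2 1.42.0 and limma 3.58.1 on log2(FPKM + 1) and log2(FPKM + 0.1), other filters and factors, a replicate block and leaving out each library were the alternatives. Depth was 55882693 to 65456020 counts per library, and intervals from counts cover counting error only. Each library differed from the others of its group by more than sampling noise, at a chi-square of at least 61.5 per degree of freedom. Pairs between the groups were not compared in this way. Named were all members, Irf1 and Irf8, the 3 tested genes of lowest edgeR p in each other list, and the 5 most alike genes. Gm4070, Tgtp2, the cell type markers given singly, the interferon genes and the genes that share sequence were named after their values were seen. One gene that the rule names is not reported here.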

Additional observations from a re-analysis of the deposited data

How the results depend on the processing

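With all libraries, edgeR called 1 coding gene and 0 members, and 9 members were higher in BSN-37 cells. The number of coding genes called was 1 with no FPKM filter and 119 with DESeq2. It was 0 with a minimum of 5 FPKM, with median-of-ratios factors, with limma at either pseudocount, with the replicate block and with coding and non-coding genes together. It was 0 to 12 when each library was left out, with 12 reached without BSN-37 library 2. Members called were 0 in all of these fits, and 0 to 1 when each library was left out, with Gvin1 called without BSN-37 library 2. Of the 8 members that passed 5 FPKM, 7 were higher in BSN-37 cells, and when each library was left out 9 to 10 of 10 were. The Igtp log2 difference was -0.28 to 0.46 when each library was left out, being 0.33 without BSN-37 library 2 and, when PBS library 1 was left out, 0.46, and the cause was not tested. Leaving out 1 library put the Gvin1 difference between 0.93 and 1.65, with adjusted p between 0.0198 and 0.654. In the other fits the Gvin1 difference was 1.01 to 1.29.

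Same-numbered libraries deviated from their group means with correlations of 0.09, 0.14 and -0.05, so the numbers were not taken to pair the samples. Not every library correlated best with its own number, and with the replicate block 0 coding genes were called. With 3 pools a group the standard errors of the members were 0.33 to 0.53 on the log2 scale, so that differences of that size were not resolved. Depth was not the limit, since each member had at least 295 reads in every library.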

Other observations

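Iigp1, an IRG effector under the filter on low values, had 1.13, 0.384 and 1.16 FPKM in BSN-37 cells and 0.258, 0.152 and 0.276 in PBS cells, without overlap. Its difference was not tested, and it was picked after its values were seen. Gm12250, which GENCODE M21 classes as a pseudogene and which was therefore outside the coding genes, had 7.94, 1.93 and 9.83 FPKM in BSN-37 cells and 7.47, 1.87 and 2.5 in PBS cells, with the low BSN-37 library 2 and the high PBS library 1 of the other GTPases. Markers of mesothelial and fibroblast cells summed to 4.44, 2.88 and 6.68 FPKM in BSN-37 cells and 2.11, 6.48 and 3.38 in PBS cells. Red blood cell markers reached 33.9 FPKM in BSN-37 library 3 and 20.1 FPKM in PBS library 2 and were below 2 FPKM in the other 4 libraries. Markers of mast cells and eosinophils summed to 0.532 to 0.72 FPKM in BSN-37 cells and 0.161 to 0.276 in PBS cells, with Prg2 at 0 in all libraries.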
